A study of Homo sapiens with 14 samples.

Results

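The genes described here are 32 KRAB zinc finger genes that lie side by side on the short arm of chromosome 19, in and next to band 19p12, around ZNF431. They were chosen by symbol, and 31 of the 32 were counted among 23106 gene symbols. ZNF730 had no row of counts and was not analysed here beyond its reference sequence. The list was built around ZNF431 with results of the PC3 hypoxia contrast in view, so the PC3 hypoxia values of these genes are given as a description and no test is drawn from them.

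A KRAB zinc finger protein binds DNA through a row of zinc fingers, and its KRAB domain recruits the corepressor TRIM28. TRIM28 in turn brings in SETDB1, a histone methyltransferase that lays down a repressive mark, and heterochromatin proteins. Many proteins of this family silence retroelements, and ZNF91 and ZNF93 are known for binding SVA and LINE elements. The 19p12 genes arose by tandem duplication in primates, so their coding sequences and promoters resemble each other.

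Polyadenylated RNA was sequenced from PC3, a prostate carcinoma cell line grown in DMEM/Ham's F12, and from HCT116, a colorectal carcinoma line grown in McCoy's medium. Cells were kept in normoxia (21% O2) or in hypoxia (0.5% O2) for 16 h. Each PC3 condition had 4 biological replicates and each HCT116 condition 3, and no further treatment or gene edit is given for these samples. Each line is 1 established line, so line, medium and any difference in library batch cannot be told apart. Levels are given as CPM, counts per 1000000 counted reads after TMM scaling of the library size.

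Libraries held 98021966 to 123935458 counts in normoxic PC3, 71228454 to 96159803 in hypoxic PC3 and 133067391 to 150630928 in HCT116. A gene without counts may still have had up to 3, which corresponded to 0.0201 to 0.0447 CPM, and this limit covers counting error only. All 8 hypoxia-inducible genes used as a check (CA9, NDRG1, ANGPTL4, BNIP3, PDK1, EGLN3, ADM and VEGFA) rose in both lines. All 4 epithelial markers exceeded 1 CPM in every group. KLK3 was at 0 in all libraries, while 3 of 6 prostate markers exceeded 1 CPM in PC3 and 2 of 6 did so in HCT116. Of 6 colon markers, CDX2 alone exceeded 1 CPM in HCT116, and CDX1 was at 0 there. The summed level of 5 leukocyte markers ranged from 35.9 to 39.1 CPM in normoxic PC3 and from 41.3 to 52.8 CPM in hypoxic PC3. It ranged from 7.83 to 8.95 CPM in normoxic HCT116 and from 12.3 to 14.3 CPM in hypoxic HCT116, and in each group only 1 of the 5 markers, the macrophage and lysosome gene CD68, exceeded 1 CPM. The summed level of 5 fibroblast markers was 7.24 to 12.7 and 6.87 to 8.86 CPM in PC3, and 9.13 to 12.5 and 8.49 to 10.3 CPM in HCT116, in normoxia and hypoxia respectively. The part of these markers in the results was not tested.

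The 32 genes span chr19:19779605-24312770 (GRCh37), 4.53 Mb, with 17 on the plus strand and 15 on the minus strand. Reference coding sequences held between 5 zinc fingers (ZNF738) and 36 (ZNF208), with a median of 12.5. ZNF91 had 31 fingers and ZNF431 had 12. A stretch of 24 coding bases occurred in 30 of the 32 genes, with 122 exact copies in all, and lies where neighbouring fingers are joined. ZNF101 and ZNF14, the 2 genes farthest from the centromere, held no copy. To show how alike these genes are, the first copy in 6 genes is printed with 18 bases on either side, 5′ to 3′ on the coding strand, with the shared 24 bases in capitals:
ZNF430 (chr19:21239864-21239923, plus strand): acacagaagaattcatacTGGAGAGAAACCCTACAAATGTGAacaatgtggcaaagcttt
ZNF714 (chr19:21300457-21300516, plus strand): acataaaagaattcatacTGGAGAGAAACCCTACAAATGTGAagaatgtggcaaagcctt
ZNF431 (chr19:21366105-21366164, plus strand): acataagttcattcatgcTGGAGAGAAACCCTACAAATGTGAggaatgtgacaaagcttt
ZNF708 (chr19:21477070-21477129, minus strand): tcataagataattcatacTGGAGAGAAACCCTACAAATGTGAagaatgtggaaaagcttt
ZNF91 (chr19:23543865-23543924, minus strand): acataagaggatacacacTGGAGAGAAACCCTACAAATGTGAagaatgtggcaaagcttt
ZNF254 (chr19:24309819-24309878, plus strand): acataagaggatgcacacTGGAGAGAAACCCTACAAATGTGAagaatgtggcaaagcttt

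Because the genes are this alike, a read can match more than 1 of them, so each reference transcript was searched for stretches with an exact copy elsewhere in GRCh37. Reads were 75 or 100 bases long depending on the sequencer. With stretches of 75 bases, 30 of the 32 genes had under 3% of their transcript in more than 1 place. The 2 others were ZNF98, with 45.0%, and ZNF492, with 31.0%. ZNF100 came next with 2.28%, and ZNF431 had 1.15%. With 100 bases, the shares of ZNF98, ZNF492 and ZNF100 were 34.7%, 21.3% and 0.769%, and 20 genes had no copied stretch at all. Of the copied stretches of 75 bases, 956 of 1019 in ZNF98 and 957 of 1292 in ZNF492 matched another listed gene. The others matched only places outside the list. ZNF98 and ZNF492 share with each other: the longest run common to these 2 genes was 417 bases, at chr19:22574956-22575372 and chr19:22847013-22847429. The first 100 bases of that run are printed to show that no base tells them apart:
ZNF98 (chr19:22575273-22575372, minus strand): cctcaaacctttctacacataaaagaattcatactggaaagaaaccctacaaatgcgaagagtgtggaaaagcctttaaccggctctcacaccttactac
ZNF492 (chr19:22847013-22847112, plus strand): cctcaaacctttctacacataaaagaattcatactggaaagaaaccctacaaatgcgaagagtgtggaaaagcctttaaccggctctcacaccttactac

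**Figure D1:**
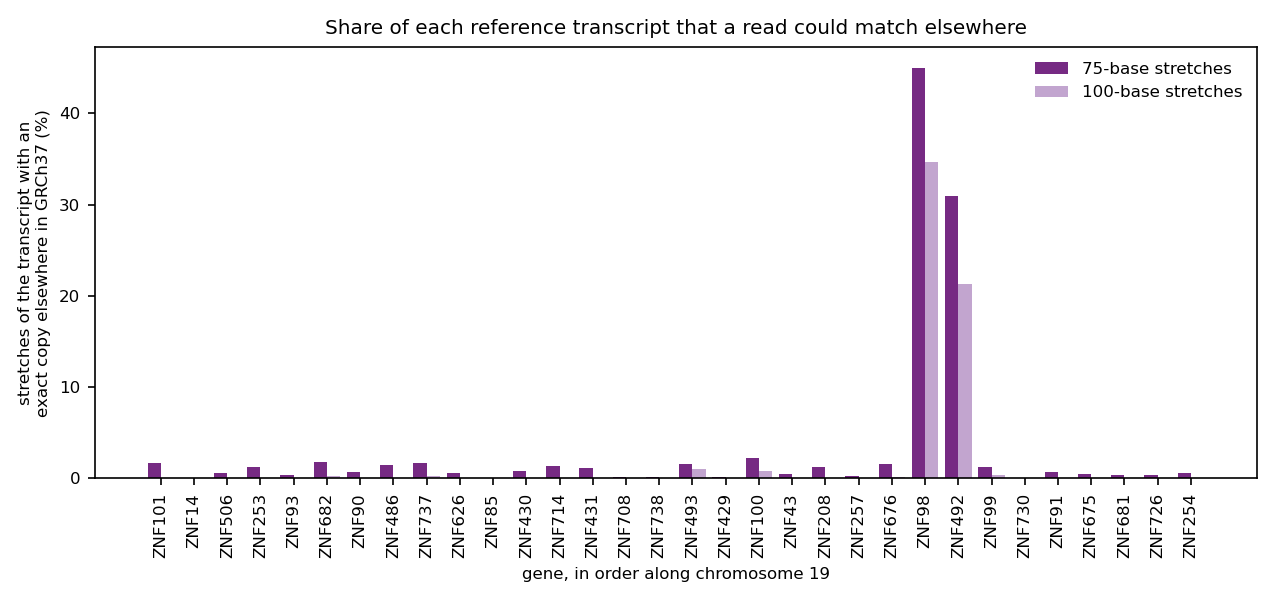
Percentage of each gene's reference transcript (y axis) made of 75-base (dark) or 100-base (light) stretches that occur again, letter for letter, elsewhere in GRCh37, with the genes in chromosomal order. ZNF98 and ZNF492 stand at 45.0% and 31.0% for 75 bases, and all other genes are under 3%.

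Counts of ZNF98 and ZNF492 are therefore uncertain. ZNF98 had 3, 2, 9 and 2 counts in the 4 normoxic PC3 libraries, 1, 0, 1 and 0 in the hypoxic ones, and 1 at most in any HCT116 library. ZNF492 had 214, 282, 242 and 233 counts in normoxic PC3 and none in HCT116. How the counting treated a read that fits both genes is not stated in the sources used here. Counting without strand would also merge antisense transcripts, and whether strand was used is likewise not given.

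Which of these genes are expressed was compared between the lines first. A gene was taken as detected in a line when each of its normoxic libraries held more than 3 counts. By this rule 12 of the 31 genes were detected in both lines, 6 in PC3 only, 2 in HCT116 only and 11 in neither. Of the 12, ZNF506 (10 to 22 counts) and ZNF738 (6 to 11 counts) were near this limit in normoxic PC3. The same shares were not counted over all genes, so these numbers are not read as particular to the cluster. The genes detected in both lines stood largely next to each other: ZNF85, ZNF430, ZNF714, ZNF431, ZNF708 and ZNF738 are consecutive in the cluster, as are ZNF101, ZNF14 and ZNF506 at the telomeric edge. ZNF91, ZNF675 and ZNF254 are at the centromeric end. ZNF682, ZNF429, ZNF43, ZNF492, ZNF681 and ZNF726 were detected in PC3 only, and ZNF493 and ZNF100 in HCT116 only.

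At this depth 8 genes did not exceed 3 counts in any library, namely ZNF90, ZNF486, ZNF737, ZNF626, ZNF208, ZNF257, ZNF676 and ZNF99. ZNF90 and ZNF626 had 0 counts in all 14 libraries. ZNF253, ZNF93 and ZNF98 reached 4, 8 and 9 counts in their highest PC3 library and no more than 1 in HCT116. ZNF43 had 8, 9, 4 and 5 counts in normoxic PC3, too few for the filter. ZNF93, which binds LINE elements, was thus near the counting limit in both lines.

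**Figure D2:**
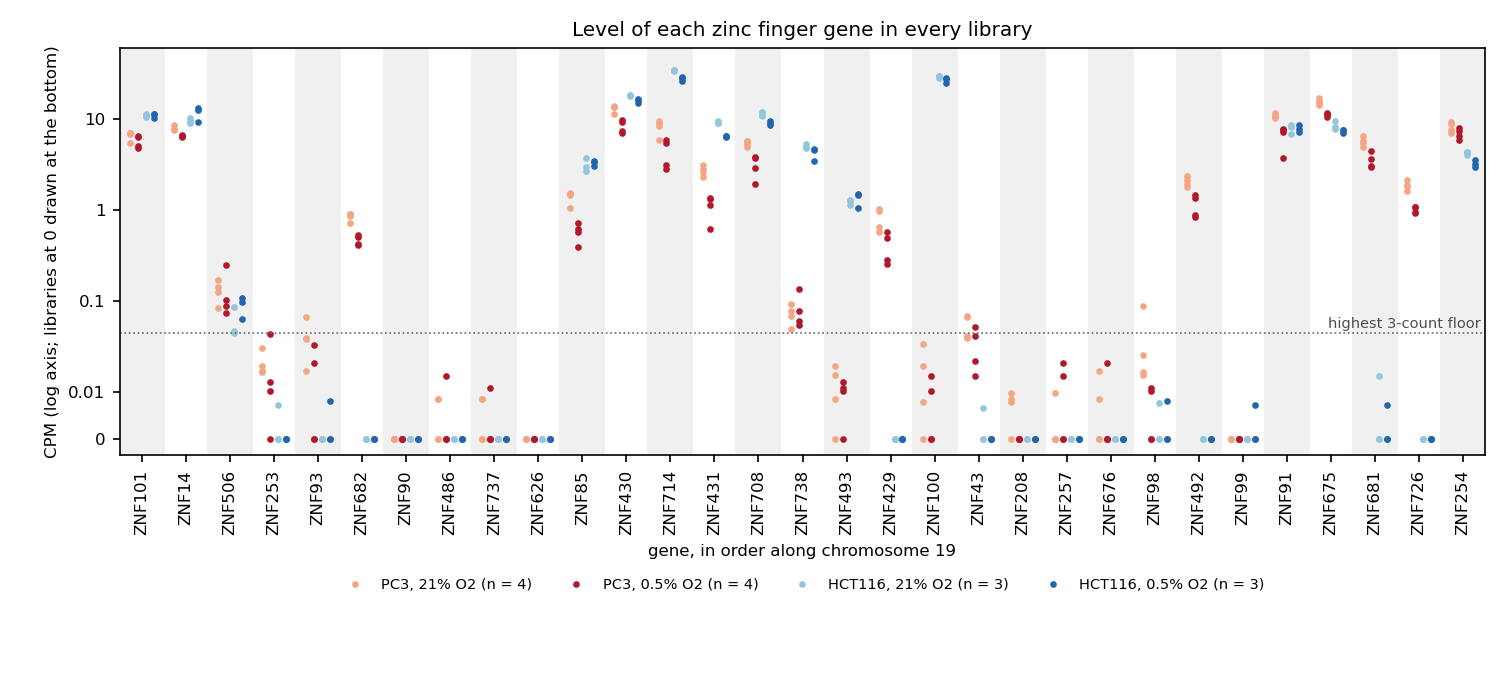
CPM on a log axis (y) of the 31 counted genes in each of the 14 libraries, in order along chromosome 19 (x). Each point is 1 library, libraries at 0 are drawn at the bottom, and the dotted line is the highest 3-count limit (0.0447 CPM). ZNF100 and ZNF493 are high in HCT116 only, and ZNF682, ZNF429, ZNF492, ZNF681 and ZNF726 in PC3 only.

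ZNF100 was detected in HCT116 only. Its counts were 4254, 4212 and 3981 in normoxic HCT116 and 3911, 3967 and 3142 in hypoxic HCT116. In normoxic PC3 they were 4, 1, 2 and 0, and in hypoxic PC3 0, 0, 1 and 1. The lines did not overlap, and in hypoxia the ratio of pooled CPM was 4480 (exact 95% counting interval 1240 to 36995). The log2 difference in normoxia, PC3 over HCT116, was -10.85 (SE 0.24), given without a test because ZNF100, ZNF493 and ZNF738 passed the filter on low counts through HCT116 alone. ZNF493 had 190, 179 and 151 counts in normoxic HCT116, and 213, 204 and 133 in hypoxic HCT116. It had 0, 2, 2 and 1 counts in normoxic PC3, and 1, 1, 1 and 0 in hypoxic PC3. ZNF738 had 721, 698 and 704 counts in normoxic HCT116 against 11, 10, 7 and 6 in normoxic PC3. Its PC3 counts stayed between 4 and 13 in hypoxia, where HCT116 held 675, 634 and 438. For both genes every HCT116 library lay above every PC3 library, and the log2 differences in normoxia were -6.72 (SE 0.40) for ZNF493 and -6.11 (SE 0.24) for ZNF738.

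Of the genes seen in PC3 alone, ZNF681 was at 4.91, 5.45, 6.52 and 5.73 CPM in normoxia, and it had 0, 0 and 2 counts in normoxic HCT116. The ratio of pooled CPM was 1192 (exact 95% counting interval 330 to 9846). ZNF726 was at 1.63, 1.90, 2.11 and 1.86 CPM in normoxic PC3, ZNF492 at 1.79, 2.16, 2.35 and 1.93 CPM, and both had no count in any HCT116 library. Set against 3 counts in the shallowest normoxic HCT116 library, their normoxic levels were at least 83.7-fold and at least 91.9-fold higher in PC3. ZNF682 was at 0.897, 0.858, 0.727 and 0.903 CPM and ZNF429 at 0.578, 1.02, 0.650 and 0.986 CPM in normoxic PC3, again with no HCT116 count. These were at least 37.8-fold and at least 36.1-fold higher in PC3.

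The genes that passed the filter on low counts in both lines were compared by level. Across all genes tested between the lines in normoxia, 42.4% were higher in PC3 and 38.9% lower. Of 19 listed genes tested, 9 were higher in PC3 and 10 lower, but 8 of these passed the filter through only 1 line and had to differ. Of the 11 tested within both lines, 4 were higher in PC3 (ZNF506, ZNF91, ZNF675 and ZNF254) and 7 lower (ZNF101, ZNF14, ZNF85, ZNF430, ZNF714, ZNF431 and ZNF708). The 5 lower genes from ZNF85 to ZNF708 are neighbours in the middle of the cluster, and 3 of the 4 higher ones lie toward the centromere. In hypoxia, where 41.8% of all genes were higher in PC3 and 39% lower, 2 of the 11 (ZNF675 and ZNF254) were higher in PC3 and the same number as in normoxia, 7, were lower. ZNF506 and ZNF91 did not pass the threshold there. The hypoxia comparison includes the hypoxic PC3 libraries, whose results were known when the list was drawn up, so its counts are a description only. The normoxic PC3 libraries were part of that known contrast too. The normoxia comparison is therefore not independent of the choice of genes, and its adjusted p values carry this limit. Of the 11, the normoxia calls of ZNF506, ZNF14 and ZNF91 depended on the setting. ZNF506 (log2 difference 1.13, SE 0.48) lost its call in 9 of 22 alternatives, with an adjusted p of up to 0.15, and ZNF14 (-0.28, SE 0.11) in 5 of 23, with up to 0.11. ZNF506 was not called without PC3 replicate 1, 2 or 3 or HCT116 replicate 1 or 3, and ZNF14 without PC3 replicate 2 or 4 or HCT116 replicate 2. The higher level of ZNF91 in normoxic PC3 (log2 difference 0.47, SE 0.18) was not called by upper-quartile scaling, or without PC3 replicate 1 or HCT116 replicate 1 or 3. With offsets for GC content and transcript length, added after the values were seen, it was -0.0229 (SE 0.16), and the hypoxia difference of ZNF91 was then called lower (-0.78).

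ZNF714 was at 34.1, 34.4 and 35.0 CPM in normoxic HCT116 and at 5.83, 8.97, 8.33 and 9.48 CPM in normoxic PC3. The lines did not overlap, and the log2 difference was -2.08 (SE 0.21, adjusted p = 2.1e-07, edgeR quasi-likelihood test with Benjamini-Hochberg adjustment, n = 4 and 3). ZNF431, described as a repressor of the Hedgehog receptor gene Patched1, was at 9.06, 9.63 and 9.15 CPM in normoxic HCT116 and at 2.32, 2.84, 3.12 and 2.60 CPM in normoxic PC3. All HCT116 libraries lay above all PC3 libraries, with a log2 difference of -1.77 (SE 0.18, adjusted p = 2.1e-07, edgeR). ZNF675, which binds the signalling adaptor TRAF6, went the other way, at 14.2, 17.2, 15.9 and 15.4 CPM in normoxic PC3 and 8.13, 7.83 and 9.63 CPM in normoxic HCT116. Its log2 difference was 0.88 (SE 0.09, adjusted p = 4.1e-07, edgeR), without overlap. ZNF254 was at 6.96, 9.22, 7.64 and 8.73 CPM in PC3 and 4.02, 4.34 and 4.34 CPM in HCT116, with a log2 difference of 0.94 (SE 0.13, adjusted p = 6.5e-06, edgeR).

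Levels were compared between genes per kb of annotated exon. In normoxic PC3, ZNF14 led with 2.68 ± 0.16 CPM per kb (SD, n = 4), followed by ZNF675 with 2.31 ± 0.18, ZNF430 with 1.93 ± 0.17, ZNF708 with 1.25 ± 0.092 and ZNF254 with 1.07 ± 0.13 CPM per kb. The SD ranges of ZNF708 and ZNF254 overlapped. In normoxic HCT116, ZNF100 had 4.48 ± 0.11 CPM per kb (SD, n = 3), ZNF714 4.30 ± 0.060, ZNF14 3.25 ± 0.22, ZNF430 2.69 ± 0.036 and ZNF708 2.62 ± 0.13 CPM per kb. ZNF430 and ZNF708 did not differ beyond their spread there. The order depends on the length used: divided by the longest transcript, ZNF675 led in PC3 with 3.71 CPM per kb and ZNF14 was the third. ZNF431, with its long exons, was at 0.193 ± 0.024 CPM per kb in normoxic PC3 and 0.657 ± 0.022 CPM per kb in normoxic HCT116.

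The level of these genes in hypoxia was then described in PC3. The summed level of the 31 genes was 81.8 to 96.1 CPM in the normoxic and 50.4 to 69.5 CPM in the hypoxic libraries, without overlap. Of all 14309 genes tested in this line, 6.03% were called higher and 5.29% lower in hypoxia. Among the listed genes 16 passed the filter on low counts, and 15 of the 16 had a log2 change below 0, with a median of -0.76 where the median of all genes was 0.00. None was called higher (none at an unadjusted p under 0.05 either, and none by DESeq2) and 11 were called lower by edgeR. With the replicate number as a block, 12 were called lower, when 13.6% of all genes were. The libraries of the 2 conditions did not overlap for 12 of the 16, lower in hypoxia in each case, against 11.3% of all genes. Nothing is read from these counts, since the list was drawn up with this contrast known. Since whole cultures were measured, fewer cells that carry a transcript and less of it per cell cannot be told apart.

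ZNF431 went from 2.32, 2.84, 3.12 and 2.60 CPM in normoxic PC3 to 1.13, 1.35, 1.32 and 0.611 CPM in hypoxic PC3. All 4 hypoxic libraries lay below all normoxic ones, replicate 4 lowest, and the log2 change was -1.29 (SE 0.23). ZNF85 was at 1.06, 1.56, 1.45 and 1.51 CPM in normoxia and 0.722, 0.569, 0.620 and 0.387 CPM in hypoxia, a log2 change of -1.26 (SE 0.22) without overlap. Of the 11 genes called lower, these 2 were those with a log2 change past -1, where 0.461% of all genes were called lower with such a change.

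The neighbours of ZNF431 on either side were lower in hypoxic PC3 too. ZNF714 went from 5.83, 8.97, 8.33 and 9.48 CPM to 3.11, 5.50, 5.87 and 2.83 CPM (log2 change -0.91, SE 0.25), with 1 hypoxic library above the lowest normoxic one. ZNF708 went from 4.87, 5.72, 5.38 and 5.70 CPM to 2.87, 3.84, 3.75 and 1.95 CPM (-0.80, SE 0.19), without overlap. ZNF430 went from 11.5, 13.6, 14.05 and 13.5 CPM to 7.31, 9.20, 9.88 and 7.02 CPM (-0.65, SE 0.12), again without overlap. The 4 consecutive genes ZNF430, ZNF714, ZNF431 and ZNF708 thus all had lower means in hypoxia.

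The same held for the genes seen in PC3 only. ZNF726 was at 0.919, 1.09, 0.961 and 1.07 CPM in hypoxia, below all its normoxic libraries (log2 change -0.89, SE 0.15). ZNF492 was at 0.887, 1.36, 1.48 and 0.834 CPM (-0.84, SE 0.21) and ZNF682 at 0.427, 0.505, 0.537 and 0.417 CPM (-0.84, SE 0.18). ZNF681 was at 2.94, 3.60, 4.44 and 3.08 CPM (-0.68, SE 0.15). None of these 4 genes overlapped its normoxic range. ZNF429 was at 0.493, 0.285, 0.568 and 0.253 CPM (-0.99, SE 0.32) and was not called, although its conditions did not overlap either.

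At the centromeric end, ZNF91, the SVA-binding protein, was at 11.6, 10.6, 10.9 and 10.3 CPM in normoxic and 7.14, 7.52, 7.74 and 3.75 CPM in hypoxic PC3 (log2 change -0.72, SE 0.20). ZNF675 was at 11.8, 11.3, 11.4 and 10.5 CPM in hypoxia (-0.47, SE 0.08). Both lay below their normoxic libraries throughout. ZNF254 was at 6.49, 8.06, 7.30 and 5.90 CPM in hypoxia (-0.22, SE 0.12), which overlapped its normoxic range. ZNF14 was at 7.84, 7.69, 8.61 and 7.58 CPM in normoxia and 6.38, 6.50, 6.63 and 6.54 CPM in hypoxia (-0.28, SE 0.08), not called although without overlap. It was called with the replicate number as a block (-0.28, SE 0.07). ZNF101 (-0.21, SE 0.13) and ZNF506 (0.02, SE 0.44) were not called.

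The shallowest PC3 library, hypoxia replicate 4 with 71228454 counts, was the lowest of its group for 12 of the 16 genes. Without it 10 were called lower, when 6.52% of all genes were. Normoxia replicate 1 was the lowest of its group for 12 of the 16. Without it 10 were called lower as well, when 4.66% of all genes were. The number was also 10 without hypoxia replicate 3, with 3.86% of all genes. The number was 5 without normoxia replicate 2 or normoxia replicate 4, when 1.4% and 2.51% of all genes were called lower. It was 6 without normoxia replicate 3 or hypoxia replicate 2, with 1.31% and 1.9% of all genes, and 7 without hypoxia replicate 1, with 4.65%. Lower calls thus became fewer among all genes too, except without hypoxia replicate 4, where their share rose from 5.29% to 6.52%.

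**Figure D3:**
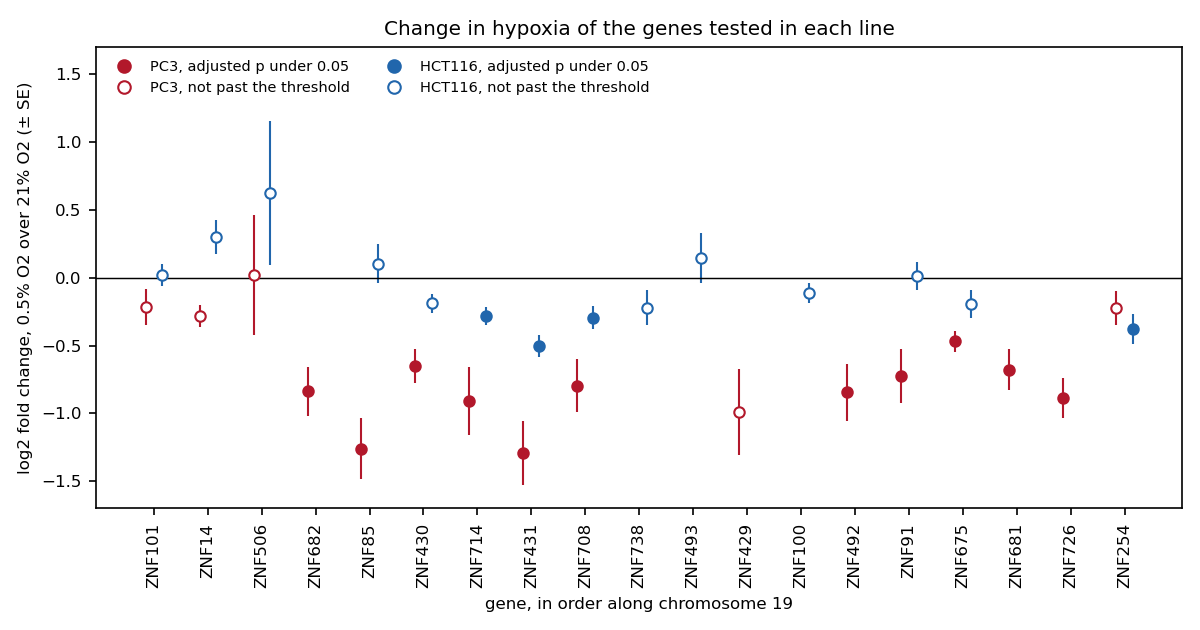
Log2 fold change, hypoxia over normoxia, with its standard error (y), of each listed gene that passed the filter in PC3 (red) or HCT116 (blue), in chromosomal order (x). Filled points passed an adjusted p of 0.05. PC3 changes reach -1.29 and HCT116 changes lie between -0.50 and 0.62.

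The same contrast was then tested in HCT116. The rule that chose the genes did not use this contrast, although earlier results of these data were known by then. Of 14120 genes tested in this line, 14.6% were higher and 11.3% lower in hypoxia by edgeR. Of 14 listed genes tested, none was higher (1 at an unadjusted p under 0.05, none by DESeq2) and 4 were lower, namely ZNF431, ZNF714, ZNF708 and ZNF254. With 8 of the 14 below 0, the median log2 change was -0.15, against 0.00 over all genes. With offsets for GC content and transcript length, added after the values were seen, it was -0.0016, against -0.020 over all genes. The libraries of both conditions did not overlap, lower in hypoxia, for 7 of the 14, where 22.2% of all genes behaved so. At a log2 change of at least 1, where 0.51% of all genes were called lower, no listed gene was. The summed level of the 31 genes was 150.2 to 156 CPM in normoxia and 126 to 144 CPM in hypoxia.

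ZNF431 was at 9.06, 9.63 and 9.15 CPM in normoxic HCT116 and at 6.54, 6.52 and 6.37 CPM in hypoxic HCT116. The groups did not overlap, and the log2 change was -0.50 (1.42-fold lower, SE 0.08, adjusted p = 0.0014, edgeR quasi-likelihood test, n = 3 and 3), lower in all 3 hypoxic libraries. Across 16 alternative settings its adjusted p ran from 2.4e-06 to 0.092, and 15 of the 16 called it. The exception was 1 fit over all 14 libraries, whose common estimate of the spread includes the PC3 libraries (log2 change -0.52, SE 0.19).

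ZNF714 and ZNF708, which flank ZNF431, fell by 0.28 (SE 0.07, adjusted p = 0.011) and 0.29 (SE 0.08, adjusted p = 0.023) on the log2 scale by edgeR. ZNF714 went from 34.1, 34.4 and 35.0 CPM to 29.4, 28.5 and 26.4 CPM. ZNF708 went from 10.9, 11.04 and 11.98 CPM to 9.11, 9.55 and 8.71 CPM. Neither overlapped between the conditions. Over the alternatives the adjusted p ran from 0.0011 to 0.43 for ZNF714, called in 15 of 16, and from 0.0031 to 0.28 for ZNF708, called in 12 of 16.

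ZNF254 went from 4.02, 4.34 and 4.34 CPM to 3.19, 3.50 and 2.97 CPM in HCT116, a log2 change of -0.38 (SE 0.11, adjusted p = 0.030, edgeR) without overlap. Its adjusted p ran from 0.0068 to 0.28, and 9 of 16 alternatives called it. Without normoxia replicate 3 or hypoxia replicate 3, only ZNF431 and ZNF714 remained called lower, and without the latter ZNF14 was called higher. Of all genes, 10.4% and 7.48% were called lower in these 2 settings, and 1599 of 14282 were called higher in the latter. With 1 fit over all 14 libraries no listed gene was called in HCT116 by edgeR (1 higher and 2 lower at an unadjusted p under 0.05). Of all genes, 5.13% were called lower in that fit.

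The other genes tested in HCT116 did not pass the threshold. ZNF430 was at 18.6, 18.5 and 18.1 CPM in normoxia and 16.3, 16.6 and 14.9 CPM in hypoxia (log2 change -0.19, SE 0.07), lower without overlap. ZNF675 was at 7.62, 7.52 and 6.98 CPM in hypoxia (-0.19, SE 0.10), also without overlap. ZNF100 (-0.11, SE 0.07), ZNF738 (-0.22, SE 0.13), ZNF91 (0.01, SE 0.10), ZNF101 (0.02, SE 0.08), ZNF85 (0.10, SE 0.14) and ZNF493 (0.15, SE 0.18) had small changes. ZNF14 was at 9.07, 10.3 and 9.52 CPM in normoxia and 12.5, 13.3 and 9.30 CPM in hypoxia (0.30, SE 0.13), and hypoxia replicate 3 overlapped the normoxic range. ZNF506 (0.62, SE 0.53) rested on 6 to 15 counts a library.

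**Figure D4:**
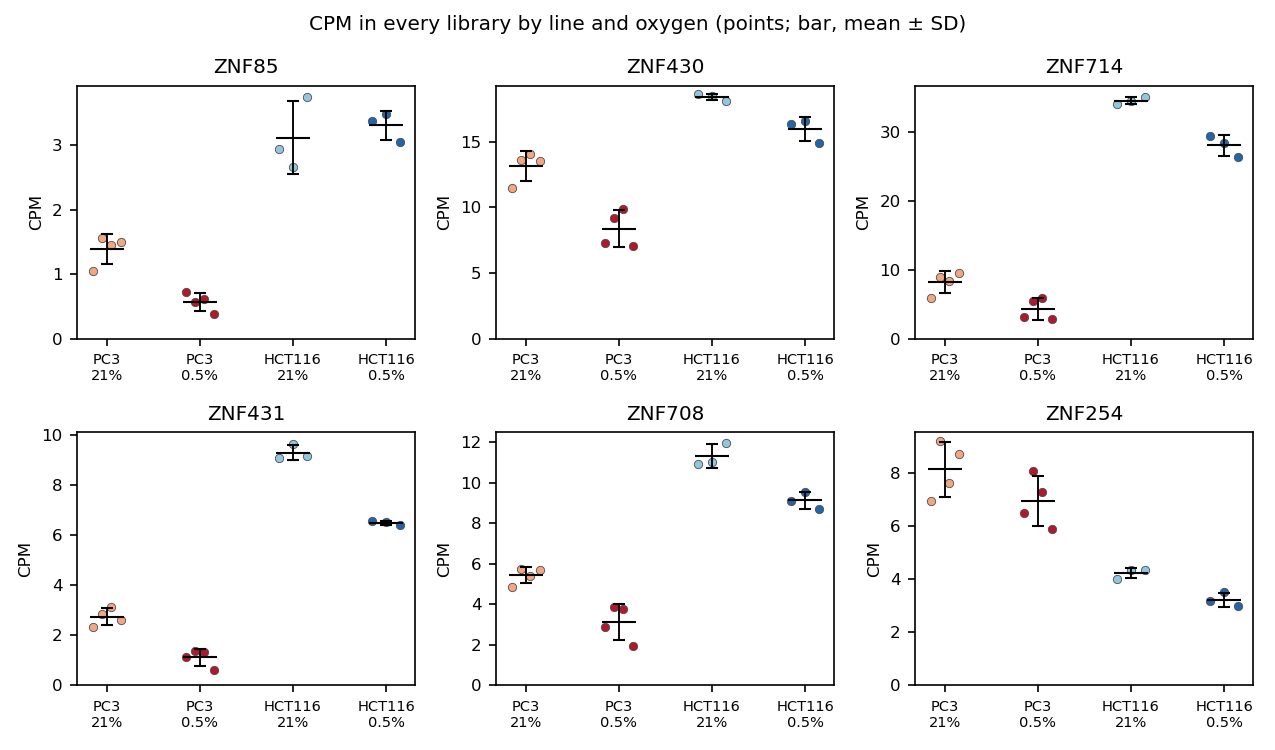
CPM (y, linear from 0) of ZNF85, ZNF430, ZNF714, ZNF431, ZNF708 and ZNF254 in each library (points) by line and oxygen (x), with the mean and SD as bars (n = 4 in PC3, n = 3 in HCT116). ZNF430, ZNF431 and ZNF708 are lower in hypoxia in both lines without overlap, while the HCT116 conditions overlap for ZNF85.

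Common and single changes were then set side by side. Of the 13090 genes tested in both lines, 2.02% were called lower in each. Of the 11 listed genes among them, 3 were (ZNF714, ZNF431 and ZNF708), which are consecutive on the chromosome, and nothing is read from this number because it uses the PC3 calls. Another 4 were called lower in PC3 and not in HCT116 (ZNF85, ZNF430, ZNF91 and ZNF675), and ZNF254 was called in HCT116 and not in PC3. A further 4 genes called in PC3 could not be tested in HCT116, where they were not detected.

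Whether a change differed between the lines was read from the interaction of line and oxygen, which contains the PC3 contrast and is therefore a description too. Of all genes tested, 1.31% were called with a lower change in PC3 and 1.01% with a higher one. Of the 19 listed genes in this fit, 8 passed the filter through 1 line and had too few counts in the other for a difference to be measured. Of the remaining 11, 1 was called lower by edgeR, ZNF85, and none was called the other way (none at an unadjusted p under 0.05, none by DESeq2). Its change in PC3 was 1.35 lower on the log2 scale than in HCT116 (SE 0.28), where it was at 2.95, 2.67 and 3.76 CPM in normoxia and 3.38, 3.50 and 3.06 CPM in hypoxia. The difference for ZNF431 was -0.77 (SE 0.26) and did not pass the threshold. With the replicate number as a block, when 4.58% of all genes were called with a lower change in PC3, 5 listed genes were, namely ZNF85, ZNF431 (-0.79, SE 0.20), ZNF14 (-0.55, SE 0.13), ZNF430 (-0.46, SE 0.12) and ZNF91 (-0.76, SE 0.20). DESeq2 called 3, with 3.48% of all genes. Leaving out PC3 normoxia replicate 2, or replicate 1 or 2 of either HCT116 condition, left none. Of all genes, 0.6% to 0.97% were called with a lower change in PC3 in these settings. Without PC3 hypoxia replicate 4 (2.73% of all genes) or HCT116 hypoxia replicate 3 (0.849%), 2 listed genes were called.

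Other zinc finger genes of chromosome 19 give a measure of what is shared more widely. Of 215 further genes with a ZNF symbol, 188 were tested in PC3, where 2 were higher (1.06%) and 35 lower (18.6%) in hypoxia. Of all genes, 6.03% were higher and 5.29% lower there. The log2 change was below 0 for 165 of the 188, with a median of -0.32. In HCT116, 25 of 152 were higher (16.4%, against 14.6% of all genes) and 7 lower (4.61%, against 11.3%). The median log2 change there was 0.09. Within the interval itself 6 more genes were counted, and only the long non-coding RNA LINC00663 passed the filter. It rose in HCT116 hypoxia, from 0.180 ± 0.082 to 0.449 ± 0.074 CPM (SD, n = 3; log2 change 1.33, SE 0.36, adjusted p = 0.020, edgeR). In PC3 it was at 0.344 ± 0.090 and 0.210 ± 0.046 CPM (SD, n = 4; log2 change -0.70, SE 0.29), not past the threshold. The difference between the lines did pass it (interaction -2.02, edgeR).

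The proteins through which KRAB zinc fingers act were also measured. TRIM28, the KRAB corepressor, was at 588 ± 45.5 CPM in normoxic and 648 ± 79.8 CPM in hypoxic PC3 (SD, n = 4), and at 992 ± 83.6 and 1124 ± 60.7 CPM in HCT116 (SD, n = 3). Neither change passed the threshold (log2 change 0.14, SE 0.10, and 0.20, SE 0.07; edgeR). SETDB1 fell in PC3 from 30.1 ± 1.95 to 24.1 ± 1.65 CPM (log2 change -0.32, SE 0.07, adjusted p = 0.027, edgeR, n = 4 and 4). In HCT116 its log2 change was -0.04 (SE 0.06), not past the threshold, and the difference between the lines was not either (-0.26, SE 0.10). Of 21 genes of the KRAB silencing machinery, 1 was higher (4.76%, against 6.03% of all genes) and 2 lower (9.52%, against 5.29%) in PC3. In HCT116, 2 were higher (9.52%, against 14.6% of all genes) and 3 lower (14.3%, against 11.3%). The median log2 changes were -0.01 in PC3 and 0.02 in HCT116.

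Among these 21, CBX5, which encodes the heterochromatin protein HP1-alpha, rose in both lines, by 0.25 (SE 0.07, adjusted p = 0.046) in PC3 and 0.73 (SE 0.07, adjusted p = 2.6e-05) in HCT116 on the log2 scale by edgeR. The rise of CBX5 was smaller in PC3 (interaction -0.48, SE 0.09, adjusted p = 0.015, edgeR). SMARCAD1, a chromatin remodeller linked to heterochromatin, fell by 0.32 (SE 0.07, adjusted p = 0.024) in PC3 and 0.31 (SE 0.07, adjusted p = 0.0083) in HCT116.

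The promoters of the genes were read to see what they share besides their place. A RefSeq promoter (250 bases before to 50 after the gene's start, GRCh38.p14) was found for 26 of the 32 genes. The core of the hypoxia response element, ACGTG or GCGTG on either strand, occurred in 13 of the 26 (50%) and in 48.4% of all 35116 promoters. ACGTG alone occurred in 2 of the 26, ZNF93 and ZNF257, and in 21.4% of all promoters. GCGTG occurred in 11 of the 26 (42.3%) and in 36.5% of all.

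The motif CCAATCA, on either strand, was picked out after the sequences had been read. It occurred in all 26 promoters, against 6.95% of all promoters and 15% of the 280 promoters of other ZNF genes of chromosome 19. It belongs to the CCAAT box, an element bound by NF-Y. At least 2 copies were found in 14 of the 26 (53.8%), against 1.1% of all promoters. In ZNF431 and ZNF714 the copies began at positions -87 and -58 from the gene's start. Genes that were not detected held the motif as well, such as ZNF90 and ZNF626 with 2 copies each. ZNF708 held only 1 copy, at -31. To show these layouts, stretches before the gene's start are printed with GRCh38.p14 positions, 5′ to 3′ on the coding strand, with CCAATCA in capitals:
ZNF85 (chr19:20923155-20923244, plus strand): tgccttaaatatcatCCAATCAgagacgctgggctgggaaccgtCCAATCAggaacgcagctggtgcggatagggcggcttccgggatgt
ZNF430 (chr19:21020556-21020645, plus strand): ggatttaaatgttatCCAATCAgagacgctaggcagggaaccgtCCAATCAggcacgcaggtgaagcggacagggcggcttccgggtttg
ZNF714 (chr19:21082101-21082190, plus strand): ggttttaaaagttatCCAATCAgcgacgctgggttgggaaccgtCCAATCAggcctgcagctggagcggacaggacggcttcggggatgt
ZNF431 (chr19:21141938-21142027, plus strand): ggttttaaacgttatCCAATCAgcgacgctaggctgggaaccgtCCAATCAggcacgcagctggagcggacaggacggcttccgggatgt
ZNF708 (chr19:21329411-21329456, minus strand): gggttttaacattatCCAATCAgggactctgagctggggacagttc
ZNF726 (chr19:23914784-23914873, plus strand): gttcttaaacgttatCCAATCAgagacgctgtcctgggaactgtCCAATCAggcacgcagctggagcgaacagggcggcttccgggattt

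**Figure D5:**
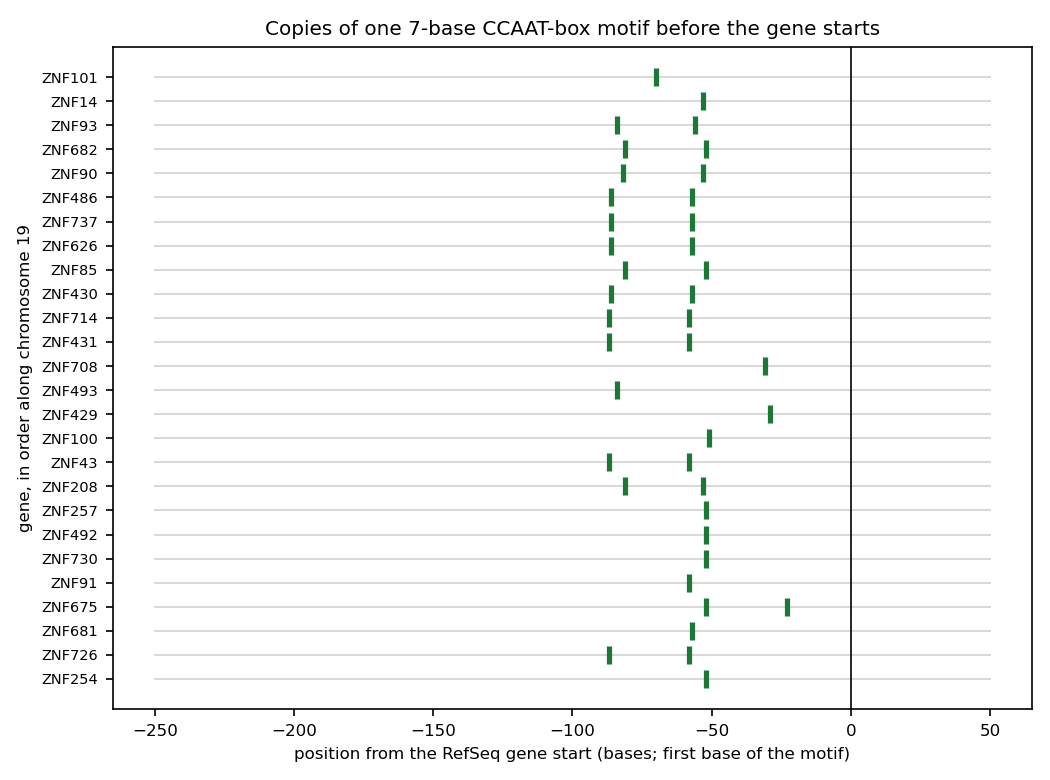
Place of each copy of CCAATCA (green marks, either strand) in the 26 RefSeq promoters, 250 bases before to 50 after the gene's start (x, bases), with genes in chromosomal order (y). Every promoter holds at least 1 copy, and 14 hold 2 or more.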

How the data were processed

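Polyadenylated RNA of 14 cultures of PC3 and HCT116 cells was sequenced in pairs of reads of 75 or 100 bases. The authors removed spike-in reads, aligned the rest to GRCh37 with HISAT2 (2.05) and deposited raw counts per RefSeq gene from HTSeq (0.5.4p3, intersection-strict). Spike-in counts were not used here, so changes are relative to the other genes. No other column was left out (0 unused columns).

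The genes and lists were chosen with earlier results of these data known. All genes were fitted with edgeR 4.0.16 (quasi-likelihood test, TMM, filterByExpr, adjusted p under 0.05, two-sided) in R 4.3.3, each line apart for hypoxia and over all 14 libraries for line and interaction. Alternatives were DESeq2 1.42.0 (the authors' own tool), other scalings and filters, thinning, a fit over both lines, the replicate block, a minimum change, offsets for GC content and length, and each library left out. Scripts were tested on simulated data. Depth was 71228454 to 150630928 counts per library. Lengths and coordinates come from GENCODE v44 lifted to GRCh37, and promoters from RefSeq (GRCh38.p14). Replicates are biological as the methods state.

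Values per library are given for ZNF431, for genes called in HCT116 with a log2 change of at least 0.3 or called in both lines, for the 5 highest per kb in each line, the 5 largest line differences in each direction and the 3 with most shared sequence. ZNF85 and ZNF91 were added after their values were seen. TRIM28, SETDB1 and silencing genes called in both lines are named.

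Same-numbered PC3 libraries deviated together from their group means (r across genes of 0.67, 0.27, 0.14 and 0.28, each over 0.1), so the numbers were taken to pair them. Some differently numbered libraries also passed 0.1. These were normoxia 2 with hypoxia 3 (0.136) and hypoxia 4 (0.111), and normoxia 4 with hypoxia 2 (0.198). Each library correlated best with its own number, but hypoxia 3 only barely (0.140 against 0.136), so the pairing is a hint from the data. The main fits carried no such block, and blocked values are printed where they change a call.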

Additional observations from a re-analysis of the deposited data

Results flagged for a closer look

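In the 32 PC3 groups of 4 libraries checked (16 genes in 2 conditions), 3 held a library far from the others, and chance flags about 1 in 20 groups. ZNF101 was at 5.39 CPM in normoxia replicate 1, where the other libraries held 6.88 to 7.09 CPM. ZNF506 was at 0.248 CPM in hypoxia replicate 3 against 0.0745 to 0.104 CPM in the others, a gene with 5 to 24 counts in PC3. ZNF91 was at 3.75 CPM in hypoxia replicate 4 against 7.14 to 7.74 CPM.

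The log2 change of ZNF85 in hypoxia was lower in PC3 than in HCT116, a difference of -1.35 (SE 0.28). It is named because the interaction was called across all genes, but it contains the PC3 contrast known when the list was drawn up and is a description only. The call was lost in 5 of 23 alternatives (adjusted p up to 0.069), each leaving out 1 library: PC3 normoxia replicate 2, or replicate 1 or 2 of either HCT116 condition.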

How the results depend on the processing

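Settings are compared with the values reported. The number of listed genes called lower in PC3 hypoxia (11) ran from 5 to 10 leaving out 1 library, and was 2 at a log2 change of at least 1. In HCT116 (4 lower, 0 higher) it ran from 2 to 4 lower and 0 to 1 higher leaving out 1 library, was 0 lower in 1 fit over all 14 libraries and at a log2 change of at least 1, and with offsets for GC content and length, added after the values were seen, was 2 lower and 1 higher. Of all genes, 13.6% were called lower in HCT116 with these offsets. The interaction (1 lower) ran from 0 to 2 leaving out 1 library, and was 3 by DESeq2 and 5 with the replicate block. Asking for 10 counts in every library left 3 genes higher in PC3 in normoxia and 2 in hypoxia, since fewer genes were tested.

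Signs turned only for changes that were not called, with 1 exception. ZNF506 in PC3 hypoxia was -0.0222 by upper-quartile and -0.0773 by total-count scaling, -0.261 after thinning and -0.0690 with the replicate block, and ran from -0.531 to 0.193 leaving out 1 library (below 0 without hypoxia replicate 3 or normoxia replicate 4). Its line difference in hypoxia ran from -0.0170 (without PC3 hypoxia replicate 3) to 0.704. In HCT116, ZNF101 was -0.0699 by total-count scaling and -0.0324 after thinning, and ran from -0.0229 to 0.0743 leaving out 1 library (below 0 without normoxia replicate 1 or hypoxia replicate 1 or 2). ZNF91 was -0.0833 by total-count scaling, ran from -0.0783 to 0.0701 leaving out 1 library (below 0 without hypoxia replicate 2 or normoxia replicate 3) and was -0.00576 in the fit over all libraries. ZNF85 ran from -0.0122 (without normoxia replicate 2) to 0.249, and ZNF100 was 0.0523 with the offsets. The exception was the line difference of ZNF91 in normoxia, called at 0.47 and -0.0229 with the offsets, which moved the median of all genes from 0.05 to -0.28. Total-count scaling moved the median of all genes in PC3 hypoxia to -0.10. The causes were not tested. Over the longest transcript, levels were 3.71 (ZNF675), 3.39 (ZNF430), 1.35 (ZNF708) and 1.92 (ZNF254) CPM per kb in normoxic PC3, and 5.16 (ZNF100), 5.07 (ZNF714), 4.74 (ZNF430) and 2.83 (ZNF708) in normoxic HCT116.

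HCT116 numbers paired less clearly (r of 0.09, 0.14 and 0.04, each library correlating best with its own number, a hint from the data and not the design), and the block left 4 genes lower there. Across lines the numbers did not pair. Beyond the calls given in the report the replicate block changed none. Depth limits the 11 genes not detected, and 3 replicates limit HCT116.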
